A study of Mus musculus with 4 samples.

Results

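The miRNAs miR-203, miR-205 and miR-184 (mmu-miR-203, mmu-miR-205 and mmu-miR-184 in the deposited table) were followed in mouse epidermal cells, where they were chosen by name as keratinocyte miRNAs, 3 probes of the 566 mouse miRNA probes measured. Levels came from nanoString nCounter, an assay in which a miRNA is bound by a probe with its own colour barcode and single barcodes are then counted. There were 4 samples, 2 of normal and 2 of oncogenic epidermal cells, taken from back skin of adult mice by overnight treatment with 0.25% trypsin and described as enriched for skin progenitors. Both groups carried R26stoprtTA/+, a reverse tetracycline transactivator behind a stop cassette, and Col-tetO-YAPS127A/+, a doxycycline-controlled transgene for YAP S127A, a constitutively active mutant of the Hippo pathway coactivator. Both groups drank doxycycline at 1 mg/ml for 8 days. Oncogenic cells came from mice that also carried K14-Cre, which removes the stop cassette in basal keratinocytes, and normal cells came from mice without Cre. The titles call the oncogenic samples tumours, while their condition label calls them oncogenic epidermal cells. The labels do not tie samples to single animals, so every p-value below reflects sample-to-sample spread that could be technical.

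miR-203 is abundant in stratified epithelia, where it limits the proliferative potential of keratinocytes as they leave the basal layer, in part by repressing the transcription factor p63. miR-205 is also rich in epithelia, is needed for the expansion of skin stem cells in mice, and represses negative regulators of phosphoinositide 3-kinase and Akt signalling, among them the lipid phosphatase SHIP2. miR-184 is best known from corneal epithelium, and in human keratinocytes it was reported to interfere with the action of miR-205 on SHIP2.

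The mature sequences show what tells the 3 miRNAs apart, with the seed, bases 2 to 8 from the 5′ end, in capitals. They are RefSeq sequences of the build GRCm38.p6. The deposited table names no arm, and the arm shown for each is the one that bore the plain name in earlier miRNA nomenclature.
miR-203 (miR-203-3p, chr12:112130927-112130948, plus strand): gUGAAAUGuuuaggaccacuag
miR-205 (miR-205-5p, chr1:193507503-193507524, minus strand): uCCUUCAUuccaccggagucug
miR-184 (miR-184-3p, chr9:89802263-89802284, minus strand): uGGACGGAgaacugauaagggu

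The 3 seeds are unrelated, and of the 1738 mature mouse miRNAs in RefSeq, 0 others carry the seed of any of them. Each is therefore the sole mouse member of its seed family there. Between the members, 15 or 16 single-base edits separate the full sequences. The closest other mouse sequence to miR-203 is miR-203b-3p, 6 edits away, which is printed to show the distance, with its own seed in capitals.
miR-203b-3p (chr12:112130887-112130908, minus strand): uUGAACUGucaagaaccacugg
For miR-205 the closest sequence lies 7 edits away and for miR-184 8 edits away. None of these closest sequences has a probe of that name on the panel.

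The hairpin precursors show which side of the stem gives each measured miRNA, with that arm in capitals.
Mir203 (chr12:112130880-112130955, plus strand): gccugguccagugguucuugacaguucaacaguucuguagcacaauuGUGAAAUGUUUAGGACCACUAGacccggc
Mir205 (chr1:193507463-193507530, minus strand): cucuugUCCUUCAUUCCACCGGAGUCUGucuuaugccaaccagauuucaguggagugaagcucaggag
Mir184 (chr9:89802260-89802328, minus strand): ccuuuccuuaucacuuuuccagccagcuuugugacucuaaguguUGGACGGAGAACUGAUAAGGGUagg

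The loci are on 3 different chromosomes. Mir203 lies between the protein-coding genes Aspg and Kif26a, and the miRNA gene Gm51289, which gives miR-203b, overlaps it on the opposite strand. Mir205 overlaps the long noncoding RNA gene Mir205hg and lies between the protein-coding genes Camk1g and Plxna2. No annotated gene overlaps Mir184, whose protein-coding neighbours are Ankrd34c and Rasgrf1.

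miR-205 and miR-203 were among the 3 strongest mouse miRNA probes in every sample, whereas miR-184 was near background in all of them. miR-205 stood at 23262 and 40291 normalized counts in normal samples 1 and 2 and at 25839 and 23078 in oncogenic samples 1 and 2. The other 3 samples lay close together, normal sample 2 stood well above them, and the groups overlapped. miR-203 stood at 10249.99 and 10451 in normal samples and at 9969 and 8229 in oncogenic samples. The oncogenic samples were both lower than the normal ones, by a small margin. miR-184 read 4.39 and 6.03 in normal samples and 7.86 and 12.3 in oncogenic samples. Normalized counts are the deposited values, whole barcode counts multiplied by 1 factor per sample, and the factors (0.878, 0.861, 0.874 and 1.761 in the same order) do not enter any comparison within a sample. In these bulk samples, fewer keratinocytes and less miRNA per keratinocyte cannot be told apart.

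**Figure D1:**
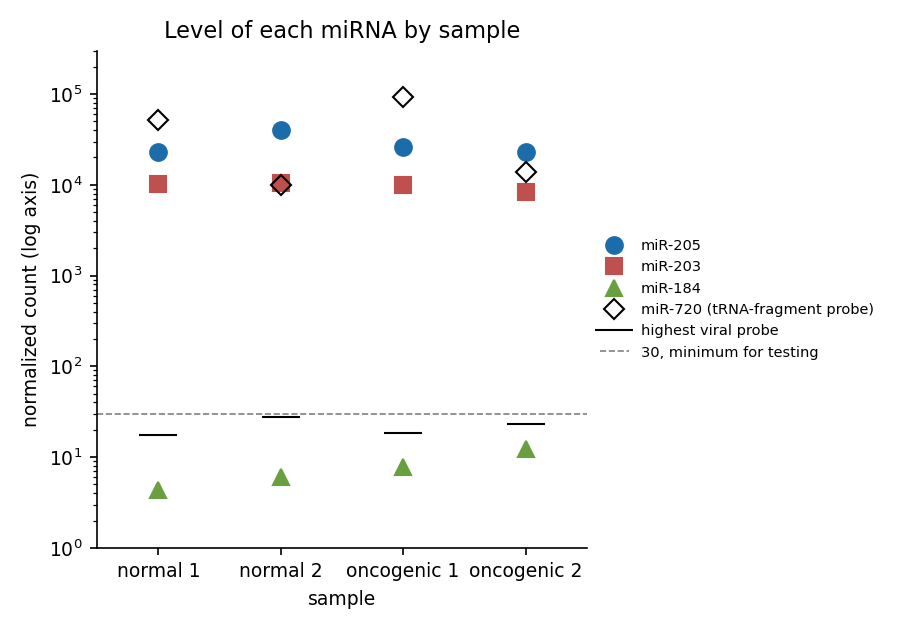
Normalized count (log axis) of miR-205, miR-203 and miR-184 in each of the 4 samples, with the miR-720 probe, the highest viral probe and the minimum of 30 used for testing. miR-205 and miR-203 sit far above 30 in all samples, miR-184 sits below the highest viral probe in all samples, and miR-720 moves by up to 9.19-fold between samples.

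The rank of miR-205 and miR-203 among the 566 probes turned on miR-720, a probe whose target is now regarded as a fragment of a transfer RNA rather than a miRNA. miR-720 read 51572 in normal sample 1, 10046 in normal sample 2, 92371 in oncogenic sample 1 and 13707 in oncogenic sample 2. It was high in both samples numbered 1 and low in both samples numbered 2. miR-205 accordingly ranked 2, 1, 2 and 1, and miR-203 ranked 3, 2, 3 and 3. With miR-720 left out, miR-205 ranked 1 and miR-203 ranked 2 in every sample. The lead of miR-203 over the next probe was then 1.21-fold and 1.297-fold over let-7c in the normal samples and 2.17-fold over let-7c in oncogenic sample 2, but 1.05-fold over the shared probe of miR-1937a and miR-1937b in oncogenic sample 1. let-7c, a let-7 miRNA that opposes growth programmes, stood at 8469, 8055, 4632 and 3801 in the order used above. Over the 4 samples the 5 probes with the highest means were miR-720, miR-205, miR-203, let-7c and let-7b, whose values were 7422, 5479, 4230 and 2621. A rank compares barcode counts of different probes, which need not be captured with the same efficiency.

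As a share of all mouse miRNA signal, miR-205 took the larger and more variable part and miR-203 a smaller one. miR-205 made up 14.01% (exact Clopper-Pearson 95% interval 13.9 to 14.2) and 29.97% (29.7 to 30.2) in the normal samples. In the oncogenic samples it made up 12.8% (12.7 to 13.0) and 24.4% (24.0 to 24.8). The low shares were in the samples where miR-720 was high, in either group. miR-203 made up 6.17% (6.06 to 6.28) and 7.77% (7.64 to 7.91) in the normal samples, and 4.96% (4.87 to 5.05) and 8.70% (8.46 to 8.94) in oncogenic samples. These intervals rest on recovered counts and cover counting error only. miR-720 itself took 31.1% (30.8 to 31.3), 7.47% (7.34 to 7.60), 45.9% (45.7 to 46.1) and 14.5% (14.2 to 14.8) in the same order.

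Without miR-720 in the total, the shares of both miRNAs rose and drew together between samples. miR-205 then held 20.3% (95% interval 20.1 to 20.5) and 32.4% (32.1 to 32.6) in the normal samples and 23.8% (23.5 to 24.0) and 28.5% (28.1 to 28.9) in oncogenic samples. The oncogenic samples lay inside the range of the normal samples, with group means of 26.4% ± 8.54 (SD, n = 2) and 26.1% ± 3.38. miR-203 held 8.95% (8.80 to 9.11) and 8.40% (8.26 to 8.55) in the normal samples and 9.16% (9.004 to 9.33) and 10.2% (9.90 to 10.5) in oncogenic samples. Both oncogenic samples were here above both normal samples, at 9.67% ± 0.714 against 8.68% ± 0.390, a difference of 0.991 percentage points with p = 0.333 by an exact two-sided permutation test, the smallest value that 2 against 2 samples allow. With miR-720 in the total the difference was -0.146 percentage points and the groups overlapped, so the direction depended on that probe. The miR-1937 probes, another set of transfer RNA fragments, stood high where miR-720 did. With these and miR-720 left out, miR-203 held 9.34% (95% interval 9.18 to 9.50) and 8.49% (8.35 to 8.64) in the normal samples. In oncogenic samples it held 10.44% (10.3 to 10.6) and 10.45% (10.2 to 10.7). On the deposited scale, 16 of the 124 miRNAs tested below (12.9%) had both oncogenic values above both normal values. The number so ordered in shares, with either set of probes left out, was not counted.

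**Figure D2:**
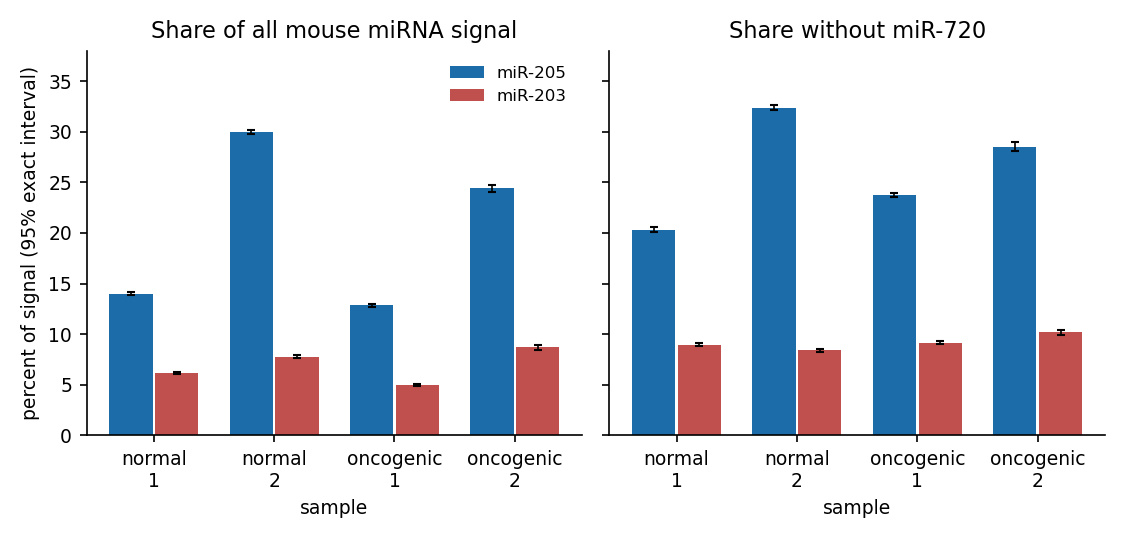
Share of mouse miRNA signal held by miR-205 and miR-203 in each sample, in percent, with all 566 probes in the total (left) and without miR-720 (right). Bars show single samples and lines their exact 95% intervals for counting error. The left bars of miR-205 split by sample number rather than by group, at 14.01% and 12.8% against 29.97% and 24.4%, and the right bars range from 20.3% to 32.4%.

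Both miRNAs together held 20.2% (95% interval 19.999 to 20.4), 37.7% (37.5 to 37.98), 17.8% (17.6 to 17.96) and 33.1% (32.7 to 33.5) of the signal, and 29.3% (29.0 to 29.5), 40.8% (40.5 to 41.0), 32.9% (32.7 to 33.2) and 38.7% (38.3 to 39.1) without miR-720. miR-184 added 0.0130% or less in any sample with miR-720 in the total, and 0.0152% or less without it. Between the group means of the summed share of the 3 members, the difference was -3.51 percentage points with miR-720 in the total and 0.786 without it (exact two-sided permutation p = 0.667 and 1). Neither difference exceeded the spread within the groups, whose SDs were 12.4 and 10.8 with miR-720 and 8.15 and 4.10 without it.

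The ratio of miR-203 to miR-205 within a sample does not depend on how samples were scaled to each other. It was 0.441 (95% interval 0.431 to 0.450) in normal sample 1 and 0.259 (0.254 to 0.265) in normal sample 2. In oncogenic samples 1 and 2 it was 0.386 (0.378 to 0.394) and 0.357 (0.345 to 0.369). The normal samples were the highest and the lowest of the 4, and both oncogenic samples lay between them. The normal samples differed by 1.70-fold and the oncogenic samples by 1.08-fold, and all 4 counting intervals were apart. On the log2 scale the ratio averaged -1.56 ± 0.54 (SD, n = 2) in normal cells against -1.43 ± 0.08 in oncogenic ones. That difference of 0.134 was smaller than the spread of the normal samples (exact two-sided permutation p = 1). It turned on normal sample 2, without which it was -0.249, against 0.516 without normal sample 1. The ratio is one of barcode counts and not of molecules, since the probes may differ in efficiency.

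**Figure D3:**
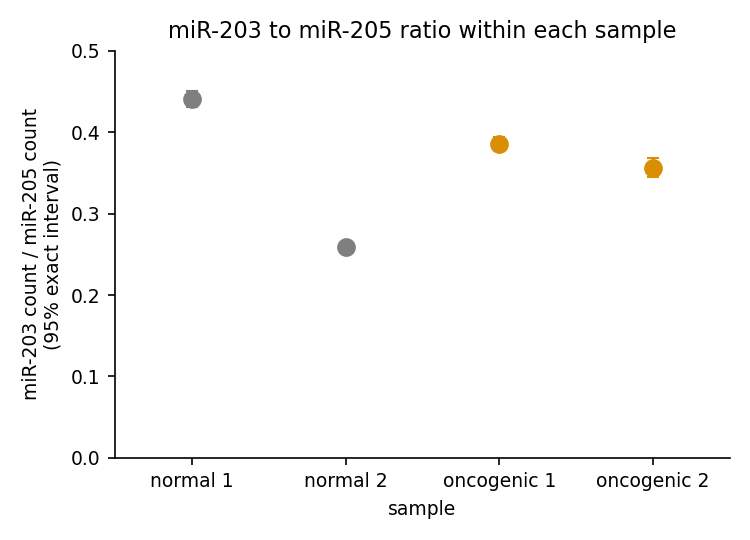
Ratio of miR-203 to miR-205 counts in each sample, with exact 95% intervals for counting error. The oncogenic samples, at 0.386 and 0.357, lie between the normal samples at 0.441 and 0.259.

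Counting error was small for both abundant miRNAs, and most samples of a group differed by far more. For miR-205 the coefficient of variation between the normal samples was 37.9%, where counting gives 0.544%, and between the oncogenic samples it was 7.98%, where counting gives 0.742%. For miR-203 it was 1.37% in normal cells against 0.917% from counting, close to the counting limit, and 13.5% in oncogenic cells against 1.23%. The recovered counts behind these values were 26482, 46781, 29581 and 13103 for miR-205 and 11669, 12134, 11412 and 4672 for miR-203. Oncogenic sample 2 was the shallowest, with 53709 recovered miRNA counts against 156092 to 230284 in the other samples.

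Neither abundant miRNA passed the test between oncogenic and normal cells. The test was limma on log2(value + 1), fitted on the 124 mouse miRNAs that reached 30 in at least 2 samples, with Benjamini-Hochberg adjustment. At an adjusted p under 0.05 it called 5 of 124 (4.03%), all lower in oncogenic cells, and 0 higher. At an unadjusted p under 0.05, 26 were lower and 4 higher. On recovered counts, edgeR called 4 lower and 0 higher, and DESeq2 called 9 lower and 5 higher. Of the members, 2 were tested and 0 called. miR-203 averaged 10350.4 ± 142 (SD, n = 2) in the normal group and 9099 ± 1230.1 in the oncogenic group. In the limma fit, which compares means of log2 values, its difference was -0.19 (SE 0.31, adjusted p = 0.7999). Its 95% interval ran from -1.01 to 0.63, so a change from 0.496-fold to 1.54-fold is compatible with these samples. miR-205 averaged 31777 ± 12042 and 24459 ± 1952. Its log2 difference in the same fit was -0.33 (SE 0.46, adjusted p = 0.775), with an interval from -1.55 to 0.90, or 0.341-fold to 1.86-fold. The separation of the groups for miR-203 is common in this table, since 48 of the 124 tested miRNAs (38.7%) had both oncogenic values under both normal values.

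Set against all tested miRNAs, both differences were ordinary. The median of the 124 log2 differences was -0.19, and miR-203 sat at that median, with 61 miRNAs below its difference and 62 above. miR-205 had 50 below and 73 above, and its difference lay 0.13 under the median. The sign of both differences depended on the scaling between samples. When each sample was centred on its median, the differences were 0.34 for miR-203 and 0.21 for miR-205, and when samples were scaled to the 100 most abundant miRNAs they were 0.21 and 0.08. Scaled to the mRNA probes they were -0.60 and -0.73. Each of these 3 scalings shifts all miRNAs of a sample by nearly the same log2 amount. The median of all tested miRNAs therefore moved alike, to 0.34, 0.21 and -0.60. Relative to it, miR-203 stayed at 0.00 and miR-205 at -0.13 to -0.14 by construction. Quantile normalization instead sets each value by its rank within the sample. miR-205 ranked 2, 1, 2 and 1, so its difference was 0.00 by construction. miR-203 ranked 3, 2, 3 and 3, and its -0.42, against a median of 0.20, reflects those ranks only. Normal sample 2 also decided the sign for miR-205, whose difference was 0.07 without it and -0.72 without normal sample 1.

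**Figure D4:**
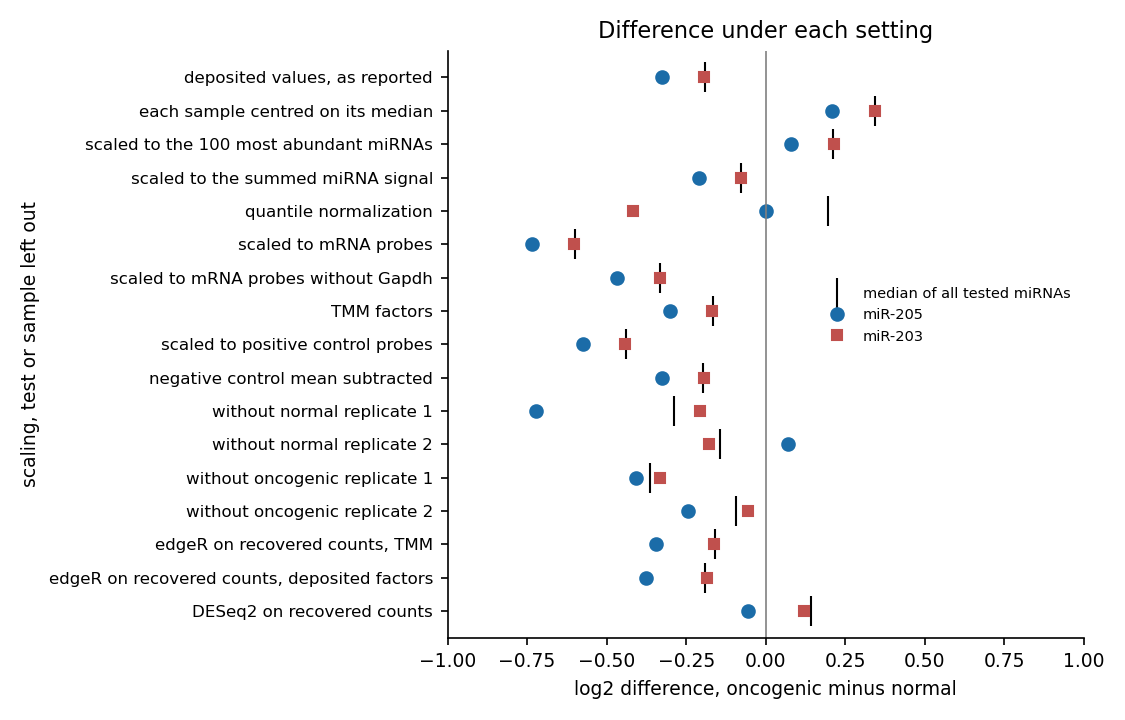
Log2 difference between oncogenic and normal cells for miR-203, miR-205 and the median of all 124 tested miRNAs under each scaling, count test and left-out sample. Scalings by 1 factor per sample shift miR-203 and the median alike by construction, from -0.60 with mRNA probes to 0.34 after centring. Quantile normalization instead sets values by rank. miR-205 moves from -0.72 to 0.07 depending on which normal sample is left out.

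The mRNA probes on the panel gave different answers as references. Per Rpl19, a ribosomal protein mRNA, the log2 difference of miR-203 was 0.08 and that of miR-205 was -0.06, with overlapping groups. Per Actb, the mRNA of cytoplasmic actin, they were -0.35 and -0.48, per B2m, of the light chain of class I MHC molecules, -0.73 and -0.86, and per Gapdh, of a glycolytic enzyme, -1.41 and -1.54. Gapdh itself read 102 and 94.7 in normal samples and 175 and 298 in oncogenic samples, higher in both oncogenic samples. Exact two-sided permutation p-values for these ratios were 0.333 or more, the smallest that the design allows.

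miR-184 could not be told from background in any sample. Its recovered counts were 5 (exact Poisson 95% interval 1.62 to 11.7) and 7 (2.81 to 14.4) in the normal samples and 9 (4.12 to 17.1) and 7 (2.81 to 14.4) in oncogenic samples. The 6 negative control probes, which have no target, ranged from 1 to 8, 3 to 9, 1 to 10 and 1 to 6 counts in the same samples. miR-184 thus lay within their range in 3 samples and 1 count above it in oncogenic sample 2. Of the 33 probes for viral miRNAs, which have no target in uninfected mouse skin, 25, 21, 14 and 6 read as high as miR-184 or higher. Among the 566 mouse miRNA probes, 387, 342, 279 and 197 read higher than it. Its neighbours in the order of means were miR-383 at 7.66 and miR-1928 at 7.65, at rank 283 and rank 285. The data therefore go against calling miR-184 a detected miRNA of these epidermal preparations, and no fold change or ratio to miR-203 or miR-205 is given for it. The minimum of 30 for tested miRNAs left it out of the reported test.

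On the deposited scale both oncogenic values of miR-184, 7.86 and 12.3, stood above both normal values, 4.39 and 6.03. In recovered counts they did not, with 9 and 7 against 5 and 7, and the deposited value of oncogenic sample 2 is its 7 counts times a factor of 1.761. The same order on the deposited scale was found for 65 of the 425 miRNAs that stayed under 30 in every sample (15.3%), and in recovered counts for 15 of them (3.53%).

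**Figure D5:**
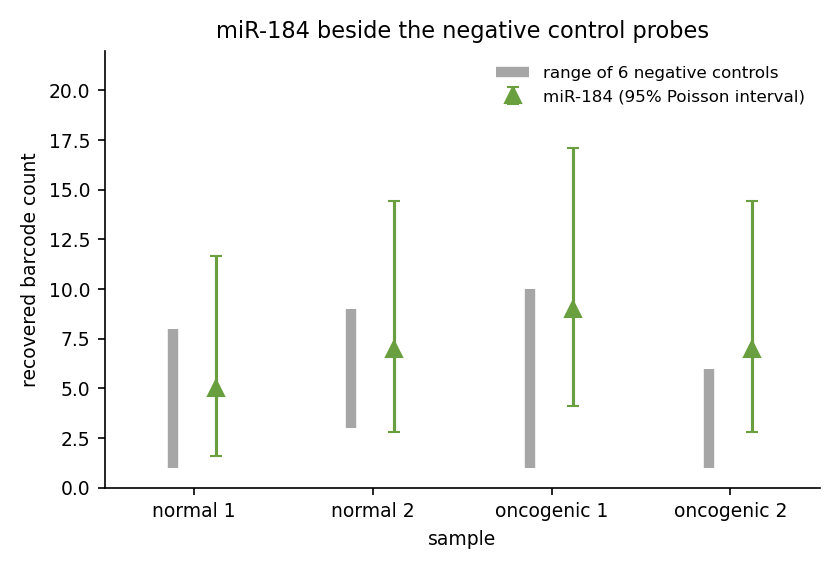
Recovered barcode count of miR-184 in each sample with its exact 95% Poisson interval, beside the range of the 6 negative control probes. The counts of 5, 7, 9 and 7 lie inside or 1 count above the negative control range.

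Other miRNAs with profiles like those of miR-203 and miR-205 across the 4 samples were found by the root mean square distance between log2 profiles, each centred on its own mean. Closest to miR-203 were the shared probe of miR-20a and miR-20b (distance 0.06), miR-154 (0.10) and miR-543 (0.10). miR-154 read 89.6 and 79.2 in normal samples and 75.1 and 70.5 in oncogenic samples, at a far lower level than miR-203. Closest to miR-205 were miR-222 (0.06), miR-191 (0.07) and let-7f (0.18). miR-191 read 83.5, 148, 104 and 82.8, with the same high value in normal sample 2 that miR-205 had. With 4 samples, these likenesses are descriptions only.

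A further list of 16 miRNAs with roles in epithelial identity or in keratinocyte growth and differentiation was set beside the members. All 16 were measured, 13 were tested, and 0 were called in either direction, where 4.03% of all tested miRNAs were called. Of the 13, 9 had negative and 4 positive log2 differences, with a median of -0.79 against -0.19 over all tested miRNAs, and 6 had both oncogenic values under both normal values (38.7% of all tested), while 1 had both above (12.9% of all tested). The median of this list was negative under every scaling, test and left-out sample tried, but its size varied, from -1.20 with scaling to mRNA probes to -0.26 with centring and -0.15 with quantile normalization. It was -0.17 with no filter, -0.42 with DESeq2, -0.48 without normal sample 1 and -0.39 without oncogenic sample 2. miR-200a and miR-200b, which repress the Zeb transcription factors in epithelial cells, had differences of -1.86 (limma adjusted p = 0.114) and -1.36 (limma adjusted p = 0.0998). miR-200b read 2326 and 2251 in normal samples and 1087 and 733 in oncogenic samples, which did not overlap. miR-200c, of the same seed family as miR-200b, read 719, 710, 729 and 801, a difference of 0.10 that ran from -0.31 to 0.63 over the 8 other scalings. miR-141 read 797 and 483 against 604 and 204, with overlapping groups and a difference of -0.82 (limma adjusted p = 0.555). miR-429 read 1974 and 1903 against 1402 and 893, without overlap, a difference of -0.79 (limma adjusted p = 0.21).

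Within the growth and differentiation group, miR-365 had a log2 difference of -1.21, miR-125b-5p, which restrains differentiation of skin stem cells in mice, one of -0.84, and miR-23b one of -0.96. miR-24, which promotes keratinocyte differentiation, had 0.34, miR-34c, of the p53-responsive miR-34 family, -0.07 and miR-27b -0.19, and each of these 3 changed sign under at least 1 of the 8 scalings. miR-21, raised in many carcinomas, had 1.00 and read 684, 358, 1499 and 653. The hypoxia-induced miR-210 had 0.30, which turned negative under 1 scaling, and read 153, 60.3, 220.1 and 63.4. miR-21 and miR-210 were higher in sample 1 than in sample 2 of each group, as miR-720 was. miR-34a, miR-31 and miR-214 stayed under 30 in all samples, as miR-184 did, and were not tested. Summed over the 16, the list read 13322 and 13320.5 in normal samples and 10187 and 6806 in oncogenic samples.

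Markers of several other cell types moved with the groups. The 3 red blood cell markers, among them miR-451, summed to 942 and 814 normalized counts in the normal samples and to 46.3 and 47.6 in oncogenic samples. The 2 endothelial markers summed to 223 and 400 against 11.4 and 17.6, and the 2 melanocyte markers to 345 and 171 against 28.0 and 17.6. The melanocyte sum was mostly miR-204, while miR-211 read 14.05 and 7.75 against 8.74 and 1.76, with overlapping groups. Of the 2, 1 and 1 markers tested in these lists, 1 each was called lower, the endothelial one being miR-126-3p, where 4.03% of all tested miRNAs were called lower. The number of such calls over all tested miRNAs ran from 1, without normal sample 2, to 25, without oncogenic sample 1. The 6 white blood cell markers summed to 621 and 492 against 334 and 440. Of the 5 tested, 1 (miR-146a) was called lower, 4 had negative differences, among them miR-223 at -0.22, and miR-155 had 0.30. miR-142-5p, under 30 in all samples, read 10.5 and 15.5 against 18.3 and 28.2, the opposite order. The 6 measured fibroblast and smooth muscle markers, with none called, summed to 123 and 93.0 against 41.1 and 36.98. Only miR-199a-3p was tested, at 42.16 and 37.03 against 9.61 and 3.52. It, miR-199a-5p, miR-145 and miR-10b had both oncogenic values under both normal values. The groups overlapped for miR-143, at 8.78 and 6.03 against 7.86 and 8.81, and for miR-214, at 6.15 and 7.75 against 6.99 and 5.28. Skeletal muscle markers, at 34.9 to 51.7 in sum, were under 30 singly in all samples. The sum of the 4 neural markers was higher in both oncogenic samples, at 46.6 and 33.6 against 83.0 and 54.6. That order came from miR-138, since miR-124, miR-9 and miR-7a were under 30 in all samples and their groups overlapped. Of these only miR-138 was tested, at 27.2 and 11.2 against 59.4 and 35.2, and it was not called (log2 difference 1.33, limma adjusted p = 0.247). The part of these cell types in the values of miR-203 and miR-205 was not tested.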

How the data were processed

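Groups were taken from the condition label. The deposited signal is a table of 618 rows, normalized by the authors, with the method, background subtraction and software not given in the sources used here. Its miRNA, mRNA and viral probes are whole counts times 1 factor per sample: 100% of 603 values per sample came out whole within 0.1 count, and control probes are unscaled. Shares and ratios were computed per sample from the deposited signal and its recovered counts, with exact intervals (scipy 1.17.1).

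The main test was limma 3.58.1 (R 4.3.3, lmFit and trended eBayes, two-sided) on log2(value + 1). It covered the 124 mouse miRNAs that reached 30 in 2 or more samples, called at a Benjamini-Hochberg adjusted p under 0.05. It was also run on simulated data, with planted changes far larger than those of miR-203 and miR-205. That run does not bear on changes of their size. A difference is oncogenic minus normal. Single values were compared by exact two-sided permutation tests. Alternatives were other scalings, pseudocounts, filters, left-out samples, the replicate block, and edgeR 4.0.16 and DESeq2 1.42.0 on recovered counts.

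The members and lists were chosen with earlier results of these data known. Named miRNAs are the members, the 5 with the highest mean, neighbours of each member in the order of means, the 3 nearest profiles of each tested member, miR-720 and the keratinocyte list. The miR-1937 probes and the mRNA probes were named after their values were seen. One marker, miR-199b, has no probe of that name.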

Additional observations from a re-analysis of the deposited data

How the results depend on the processing

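No alternative brought miR-203 or miR-205 past the threshold. The log2 difference of miR-203 was positive with centring (0.34), the 100 most abundant miRNAs (0.21) and DESeq2 (0.12). That of miR-205 was positive with the first 2 of these (0.21 and 0.08) and -0.72 to 0.07 when samples were left out in turn. With quantile normalization it was 0.00, as its ranks fix. The difference of the miR-203/miR-205 ratio was -0.249 to 0.516 with samples left out. Share differences without miR-720 were 0.991 percentage points for miR-203, -0.212 for miR-205 and 0.786 for the 3 members together. Without the miR-1937 probes as well, chosen after seeing the data, they were 1.53 for miR-203, 1.23 for miR-205 and 2.77 together. With miR-720 counted and samples left out in turn they ran from -2.02 to 1.73 for miR-203, from -11.3 to 4.61 for miR-205 and from -12.3 to 5.27 together. miR-184, untested in the reported fit, had an adjusted p of 0.959 by limma with no filter. The number of miRNAs called lower was 8 with the summed signal, 3 with quantile normalization or positive controls, 9 with DESeq2, 4 with edgeR (TMM or deposited factors), and 1 (without normal sample 2) to 25 (without oncogenic sample 1) with samples left out. Those called higher were 3 with centring or the 100 most abundant miRNAs, 1 with the summed signal, 5 with DESeq2 and 0 to 2 with samples left out. With the replicate block 24 were lower and 6 higher, and miR-203 and miR-205 had adjusted p of 0.775 and 0.667. Same-numbered samples deviated together (r = 0.66 over 124 miRNAs), but the labels do not say what the number stands for. Apart from values fixed by construction, the cause of a changed value was not tested. Background limits miR-184 most, at 5 to 9 counts a sample where the highest negative control read 6 to 10. With a sample left out, the lone sample of its group is assumed to vary like the other group.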

Other observations

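miR-203 was among the most even of the abundant miRNAs, a feature that was looked at after its values were seen. Its highest value was 1.27 times its lowest, against a median of 2.35 over the 124 tested miRNAs, which put it at place 11 in that order and at place 2 among the 20 probes with the highest means. miR-205, at 1.746 times, was at place 35 and at place 5 among the 20. These are values on the deposited scale and describe 4 samples.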
